A study of Mus musculus with 18 samples.

Results

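GLN elements are endogenous retroviruses of the mouse, relatives of the gammaretroviruses, and are named for the glutamine tRNA that primes their reverse transcription. Such an element consists of an internal part, which encodes the gag, pol and env proteins of a complete copy, between a pair of long terminal repeats (LTRs). The LTR holds the promoter and the polyadenylation signal, and most LTR copies of such families stand alone in the genome after recombination has removed the internal part. Host cells usually keep these elements silent by DNA methylation and repressive histone marks, and embryonic stem cells rely on histone-based silencing more than most other cells do.

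The rows described are those whose repeat name begins with MMERGLN or RLTR1B. They are 4 of the 1365 repeat rows in each of the 3 authors' deposited tables, and all carry the class label ERV1. MMERGLN-int and RLTR1B-int are internal parts by name, MMERGLN_LTR is an LTR by name, and RLTR1B has the name form of an LTR. Each row sums the reads of all genomic copies of its repeat. All 4 passed the authors' filter on low values and were tested in every table.

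The study asked what inhibition of the chaperone HSP90 does to RNA from endogenous retroviruses. The data come from 18 mouse poly(A) RNA libraries, 3 in each of 6 groups. Bone-marrow-derived macrophages, grown out of marrow with M-CSF and labelled BALBC/C57BL6, were treated with 500 nM NVP-AUY922, an HSP90 inhibitor, for 24 h, or left untreated. Neuronal progenitor cells (NPCs), grown with EGF and FGF and labelled 129S1/CASTEiJ, were treated with 50 nM for 24 h or left untreated. Embryonic stem cells (ESCs) were kept in 2i medium and also labelled 129S1/CASTEiJ; they were treated with 100 nM for 24 h or left untreated. Cell type, dose and, for macrophages, strain thus change together and cannot be told apart. The labels do not say that replicates were separate cultures or animals, and a p-value here covers the spread among these libraries alone, which may be technical. The tables hold repeats and no genes, so the labelled cell types were not checked against marker genes here.

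Each authors' deposited table gives 1 comparison of treated and untreated cells as a base mean, which is the mean normalised read count over the libraries, and a log2 fold change with its standard error (SE, after ±). Which group is the numerator is not stated, nor whether it is the same group in each table. A row is therefore said to be positive or negative in the contrast, with no side given to treated cells. Within 1 table, rows on the same side differ between the groups in the same direction. A row was called where the authors' adjusted p was under 0.05. Of all rows tested, 25.8% were called in macrophages (12.5% on the negative and 13.3% on the positive side), 11.8% in NPCs (6.81% and 4.96%) and 22.2% in ESCs (12.0% and 10.2%). In such bulk samples, fewer cells that carry an RNA and less of it per cell cannot be told apart.

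The members lay mainly on the negative side of each table as deposited. Of their 12 values, 11 were negative, and the 9 that were called were all negative. Since the numerator may differ between tables, agreement in side can be read within a table and not across them. Of all tested rows, 645 of 1255 were negative in macrophages, 623 of 1249 in NPCs and 561 of 1132 in ESCs. For every cell type 3 of the 4 members were called, all on the negative side, with a different member missing the threshold in each. These were RLTR1B in macrophages, RLTR1B-int in NPCs and MMERGLN_LTR in ESCs. Rows more like the members were called negative more often than all rows were. For internal rows the share was 24.8% in macrophages, 11.6% in NPCs and 23.3% in ESCs. For ERV1 rows it was 24.1%, 8.55% and 19.8% in the same order. The median log2 fold change of the 4 members was -0.66 in macrophages, -0.78 in NPCs and -0.33 in ESCs, beside medians over all tested rows of -0.0129, 0.0009 and 0.0019 in the same order.

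**Figure D1:**
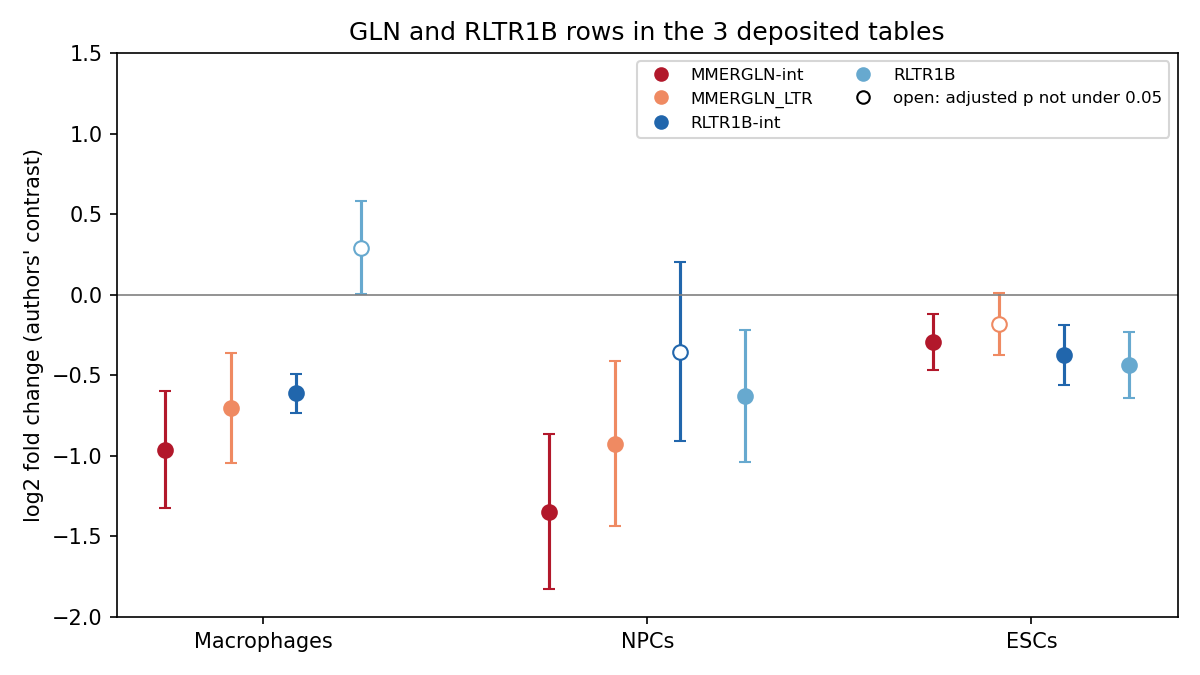
Log2 fold change of each of the 4 members in the authors' deposited tables, by cell type, with 95% intervals from the deposited SE as bars. Filled points have an adjusted p under 0.05 and open points do not. All points but that of RLTR1B in macrophages lie below 0.

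MMERGLN-int, the internal part of the GLN retroviruses, was called in all 3 tables; with Bonferroni in place of Benjamini-Hochberg adjustment the ESC call was lost (adjusted p = 1.0). The authors' deposited table for macrophages put it at -0.96 ± 0.19 (adjusted p = 3.248e-06), which is a 1.95-fold difference between treated and untreated cells. For NPCs the authors' deposited table put it at -1.35 ± 0.25 (2.54-fold, adjusted p = 1.877e-06). The ESC value in the authors' deposited table was smaller, -0.29 ± 0.09 (1.22-fold, adjusted p = 0.00688). Its 95% intervals were -1.33 to -0.60 in macrophages, -1.83 to -0.86 in NPCs and -0.47 to -0.12 in ESCs, so that none reached 0.

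Counted from the negative end, MMERGLN-int ranked 20 of 1249 tested rows in NPCs, 30 of 1255 in macrophages and 195 of 1132 in ESCs. Among the tested ERV1 rows its ranks were 4 of 117 in NPCs, 10 of 116 in macrophages and 29 of 111 in ESCs. It was 1 of 33 rows, of the 1121 tested in all 3 tables, that were called in each on either side, a count that does not depend on how the tables are oriented. As deposited, 15 rows (1.34%) were called on the negative side in each table and 7 on the positive side. Of these 15, 3 were ERV1 by class, MMERGLN-int beside MER31B and RLTR30D_RN.

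MMERGLN_LTR, the LTR row of the same name, lay on the same side with smaller values. The authors' deposited table gives -0.70 ± 0.18 for macrophages (1.63-fold, adjusted p = 0.00049), and that for NPCs -0.92 ± 0.26 (1.90-fold, adjusted p = 0.00607). For ESCs the authors' deposited table gives -0.18 ± 0.10 (adjusted p = 0.190). The ESC interval ran from -0.37 to 0.01, and a value of this precision would have passed only beyond 0.25 on either side.

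RLTR1B-int, the internal part named for the RLTR1B LTR, was the member with the smallest p in macrophages. Its macrophage value in the authors' deposited table was -0.61 ± 0.06 (1.53-fold, adjusted p = 2.768e-21). For NPCs the authors' deposited table gives -0.35 ± 0.28 (adjusted p = 0.576). Its ESC value in the authors' deposited table was -0.38 ± 0.09 (1.30-fold, adjusted p = 0.000677). The NPC interval of -0.91 to 0.20 takes in both the macrophage and the ESC value. At this SE a row in NPCs would have passed only beyond 0.78, so an observed value of the size seen in the other tables would not have passed.

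RLTR1B was the only member with a value on the positive side. This was in macrophages, where the authors' deposited table has 0.29 ± 0.15 (unadjusted p = 0.0476, adjusted p = 0.140). For NPCs the authors' deposited table has -0.63 ± 0.21 (1.55-fold, adjusted p = 0.0286). For ESCs the authors' deposited table has -0.44 ± 0.10 (1.35-fold, adjusted p = 0.000339). Its ESC value was the most negative of the members there.

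The read support of the members differed widely, as did the spread behind their values. Base means are not corrected for length or copy number, and each table was normalised by itself, so they are given as read support and not as levels. In the authors' deposited tables MMERGLN-int had base means of 8295 for macrophages, 4972 for NPCs and 30471 for ESCs. RLTR1B-int had 1409 for macrophages, 3441 for NPCs and 164223 for ESCs in those deposited tables, and the last was the third largest of all ESC rows. In the authors' deposited tables MMERGLN_LTR had base means of 867 for macrophages, 570 for NPCs and 3889 for ESCs. RLTR1B had 1499 for macrophages, 831 for NPCs and 3105 for ESCs in the same deposited tables. As a share of all normalised repeat reads in a table, the 4 members together made up 0.607% in macrophages, 0.471% in NPCs and 5.25% in ESCs, where RLTR1B-int alone made up 4.28%.

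**Figure D2:**
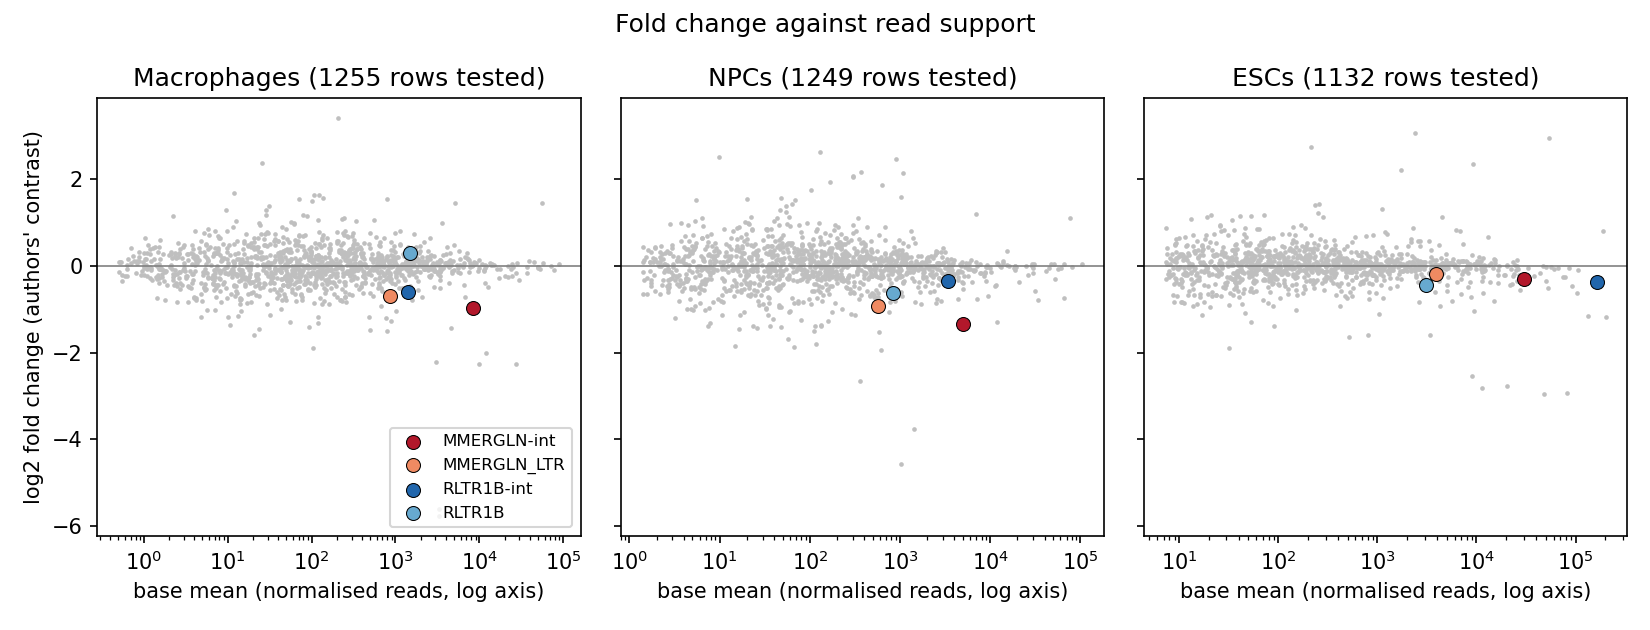
Log2 fold change against base mean (log axis) for every tested row, 1 panel per cell type, with the 4 members in colour and other rows in grey. In ESCs RLTR1B-int stands at a base mean of 164223, near the right edge, and in NPCs MMERGLN-int stands below most rows at -1.35.

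In macrophages the SE of MMERGLN-int, 0.19, was 3.36 times the median SE of 0.0554 over the 62 tested rows with a base mean within a factor of 2 of its own. For MMERGLN_LTR and RLTR1B in macrophages the same ratios were 2.08 and 1.90, while for RLTR1B-int the ratio was 0.792. RLTR1B-int was thus the member with the smallest error there, with fewer reads than MMERGLN-int. In NPCs the ratios lay between 1.16 for RLTR1B and 1.64 for RLTR1B-int, and in ESCs between 0.993 for RLTR1B-int and 1.38 for RLTR1B.

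The number of internal reads per LTR read was similar in all 3 tables for the MMERGLN pair and differed for the RLTR1B pair. In this ratio of base means a scale common to all libraries of a table cancels, while the size factors of single libraries still weight them. The length of the rows is the same in each table. Each base mean pools treated and untreated libraries, so the ratio is not that of untreated cells. MMERGLN-int had 9.57 normalised reads per read of MMERGLN_LTR in macrophages, 8.72 in NPCs and 7.83 in ESCs, a spread of 1.22-fold between the highest and the lowest. RLTR1B-int had 0.939 reads per read of RLTR1B in macrophages, 4.14 in NPCs and 52.9 in ESCs, a spread of 56.3-fold. The same spread was computed for the 38 pairs of rows that share a stem name and had a base mean of at least 50 in every table. Its median was 1.86-fold, and the RLTR1B pair had the largest of the 38. The pair was chosen for description, the tables give no error for a base mean, and no test was made.

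RLTR1B-int also changed place with MMERGLN-int between cell types. The base mean of RLTR1B-int was 0.17 times that of MMERGLN-int in macrophages, 0.692 times in NPCs and 5.39 times in ESCs. For the LTR rows, the base mean of RLTR1B was 1.73 times that of MMERGLN_LTR in macrophages, 1.46 times in NPCs and 0.798 times in ESCs. The order of both pairs was thus the same in macrophages and NPCs and turned round in ESCs. ESCs and NPCs carry the same strain label but differ in cell type, medium and dose, and macrophages also differ in labelled strain. What the ratios follow was not tested.

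**Figure D3:**
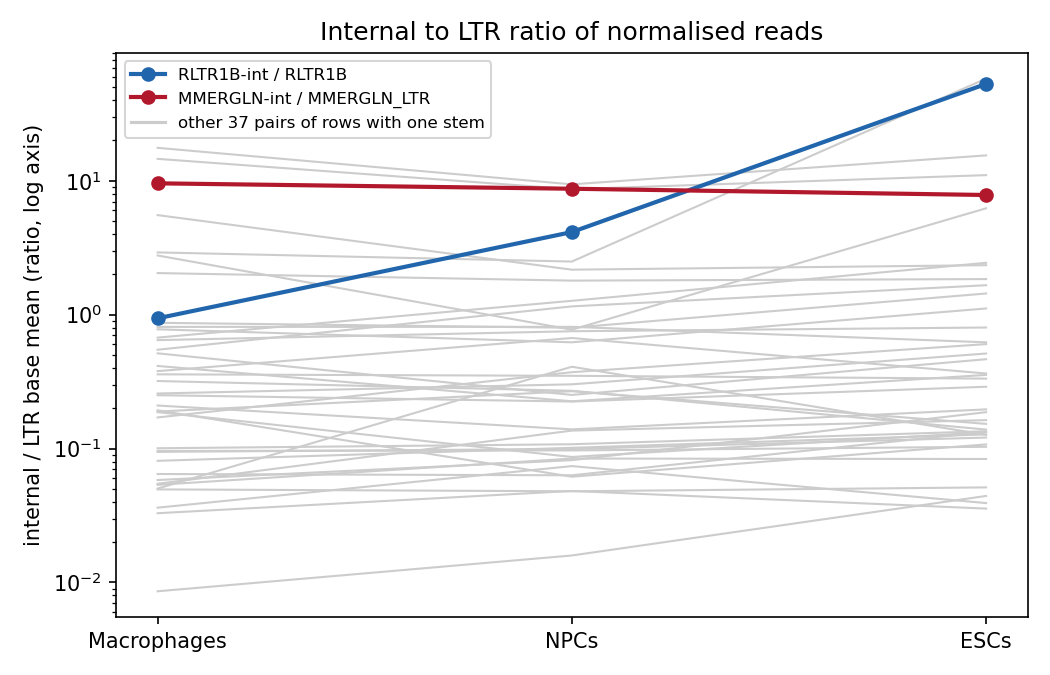
Ratio of the internal to the LTR base mean (log axis) in each cell type, for the RLTR1B pair, the MMERGLN pair and the other 37 pairs of rows with a shared stem name. Lines join the values of 1 pair; the RLTR1B line goes through 0.939, 4.14 and 52.9, while the MMERGLN line stays between 7.83 and 9.57.

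Whether an LTR and its internal part had different fold changes was compared within each table. The rows come from the same libraries and their covariance is not known, so the sum of the 2 SEs was used as the largest error possible. Of 6 comparisons 1 exceeded this bound. This was in macrophages, where RLTR1B minus RLTR1B-int was 0.90, from 0.29 and -0.61 in the authors' deposited table, with a bounding 95% interval of 0.49 to 1.31. The RLTR1B differences were -0.28 in NPCs (-1.24 to 0.69) and -0.06 in ESCs (-0.45 to 0.33). MMERGLN_LTR minus MMERGLN-int was 0.26 in macrophages (-0.45 to 0.97), 0.42 in NPCs (-0.57 to 1.42) and 0.11 in ESCs (-0.26 to 0.47). These 5 intervals take in 0, and those of the MMERGLN pair in macrophages and NPCs also take in 0.90. No such count was made for other pairs of an LTR and an internal row. How usual such a difference is was therefore not tested, and it is not read as particular to the RLTR1B pair.

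The fold changes of the same row were then compared between cell types, as the difference of the deposited log2 values over the root of the summed squared SEs, with p adjusted over all rows tested in both tables. With the tables taken as oriented alike, 5 of the 12 differences of the 4 members passed an adjusted p of 0.05. Over all rows 23.7% passed for macrophages minus ESCs, 12.6% for NPCs minus ESCs and 12.4% for macrophages minus NPCs. Since the orientation is not stated, each difference was also computed with the sign of the second table turned. In that form 9 of 12 passed, against 27.9%, 16.2% and 19.9% of all rows in the same order, and 3 of the 12 passed both ways. The share of all rows that passed both ways was 11.8% for macrophages minus ESCs, 6.04% for NPCs minus ESCs and 6.06% for macrophages minus NPCs.

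MMERGLN-int differed between macrophages and ESCs and between NPCs and ESCs whichever way the tables were oriented. Macrophages minus ESCs gave -0.67 ± 0.21 (adjusted p = 0.00792) with the tables oriented alike and -1.25 (adjusted p = 2.187e-08) with the ESC sign turned. NPCs minus ESCs gave -1.05 ± 0.26 (adjusted p = 0.000922) and -1.64 (adjusted p = 1.182e-08). Its value in ESCs was therefore nearer 0 than in either other cell type under both orientations. For macrophages minus NPCs the difference was 0.38 ± 0.31 with an interval of -0.22 to 0.99 and an adjusted p of 0.550, and it was -2.31 (adjusted p = 3.658e-12) with the NPC sign turned.

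MMERGLN_LTR also differed both ways between macrophages and ESCs, at -0.52 ± 0.20 (adjusted p = 0.0420) oriented alike and -0.89 (adjusted p = 8.982e-05) turned. With each table first centred on its own median the first of these had an adjusted p of 0.0511. For NPCs minus ESCs it gave -0.74 ± 0.28 (adjusted p = 0.0597) alike and -1.11 (adjusted p = 0.000964) turned.

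The differences of RLTR1B rested on the orientation of the tables. Oriented alike, RLTR1B in macrophages minus ESCs was 0.73 ± 0.18 (adjusted p = 0.000620) and in macrophages minus NPCs 0.92 ± 0.26 (adjusted p = 0.00563). With the second sign turned these became -0.14 (adjusted p = 0.602) and -0.34 (adjusted p = 0.423). NPCs minus ESCs was -0.19 ± 0.23 (adjusted p = 0.731) alike and -1.06 (adjusted p = 9.805e-05) turned. For RLTR1B-int no difference passed with the tables oriented alike. These were -0.24 ± 0.11 for macrophages minus ESCs (adjusted p = 0.121), 0.02 ± 0.30 for NPCs minus ESCs (adjusted p = 0.978) and -0.26 ± 0.29 for macrophages minus NPCs (adjusted p = 0.695). With the second sign turned they were -0.99 (adjusted p = 6.695e-17), -0.73 (adjusted p = 0.0796) and -0.96 (adjusted p = 0.00613) in the same order, so whether RLTR1B-int differed between cell types also rested on the orientation.

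**Figure D4:**
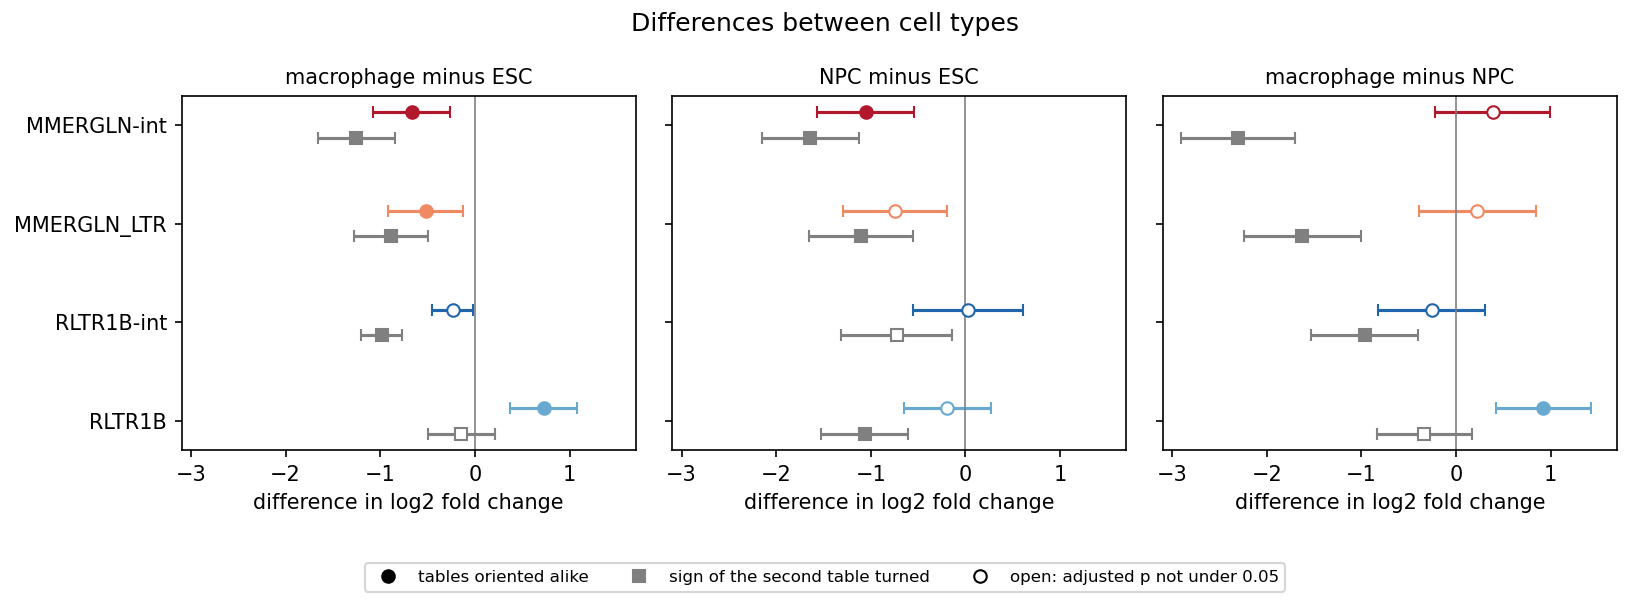
Difference in log2 fold change between cell types for the 4 members, with 95% intervals, oriented alike (coloured circles) and with the sign of the second table turned (grey squares). Filled symbols have an adjusted p under 0.05. MMERGLN-int lies left of 0 both ways in macrophages minus ESCs and in NPCs minus ESCs.

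The other rows with an RLTR1 name, 7 in all, did not share 1 side. Of the 6 tested in macrophages 1 was called negative and 3 positive, of the 7 in NPCs 1 was negative and 0 positive, and of the 7 in ESCs 2 were negative and 0 positive. Their median log2 fold change was 0.14 in macrophages, -0.44 in NPCs and 0.18 in ESCs. For the row named RLTR1 the authors' deposited tables list a base mean of 0 in macrophages, 1.43 in NPCs and 10.6 in ESCs, and it was not called in NPCs or ESCs.

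RLTR1A2_MM and RLTR1D2_MM were the relatives called on the negative side. The authors' deposited tables place RLTR1A2_MM at -0.87 ± 0.17 in macrophages (adjusted p = 4.858e-06), -0.49 ± 0.34 in NPCs (adjusted p = 0.487) and -0.26 ± 0.09 in ESCs (adjusted p = 0.0258). The authors' deposited tables place RLTR1D2_MM at -0.09 ± 0.15 in macrophages (adjusted p = 0.756), -1.06 ± 0.18 in NPCs (adjusted p = 9.528e-08) and -0.66 ± 0.13 in ESCs (adjusted p = 2.039e-06). The relatives called on the positive side, as deposited, were all in macrophages. RLTR1B also had a positive value in macrophages, but it was not called (adjusted p = 0.140). That authors' deposited table has RLTR1C at 0.68 ± 0.09 (adjusted p = 1.079e-12) and RLTR1D at 0.36 ± 0.10 (adjusted p = 0.00179). It also has RLTR1E_MM, with a base mean of only 23.9, at 0.98 ± 0.24 (adjusted p = 0.000447 as deposited by the authors). None of these was called in NPCs, where the authors' deposited table has RLTR1C at 0.20 ± 0.17, RLTR1D at -0.42 ± 0.24 and RLTR1E_MM at -0.44 ± 0.38. Nor was any called in ESCs, where the authors' deposited table has RLTR1C at 0.18 ± 0.11, RLTR1D at 0.19 ± 0.14 and RLTR1E_MM at -0.59 ± 0.27. RLTR1F_Mm, which has the class label ERVK, was not called in any table.

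**Figure D5:**
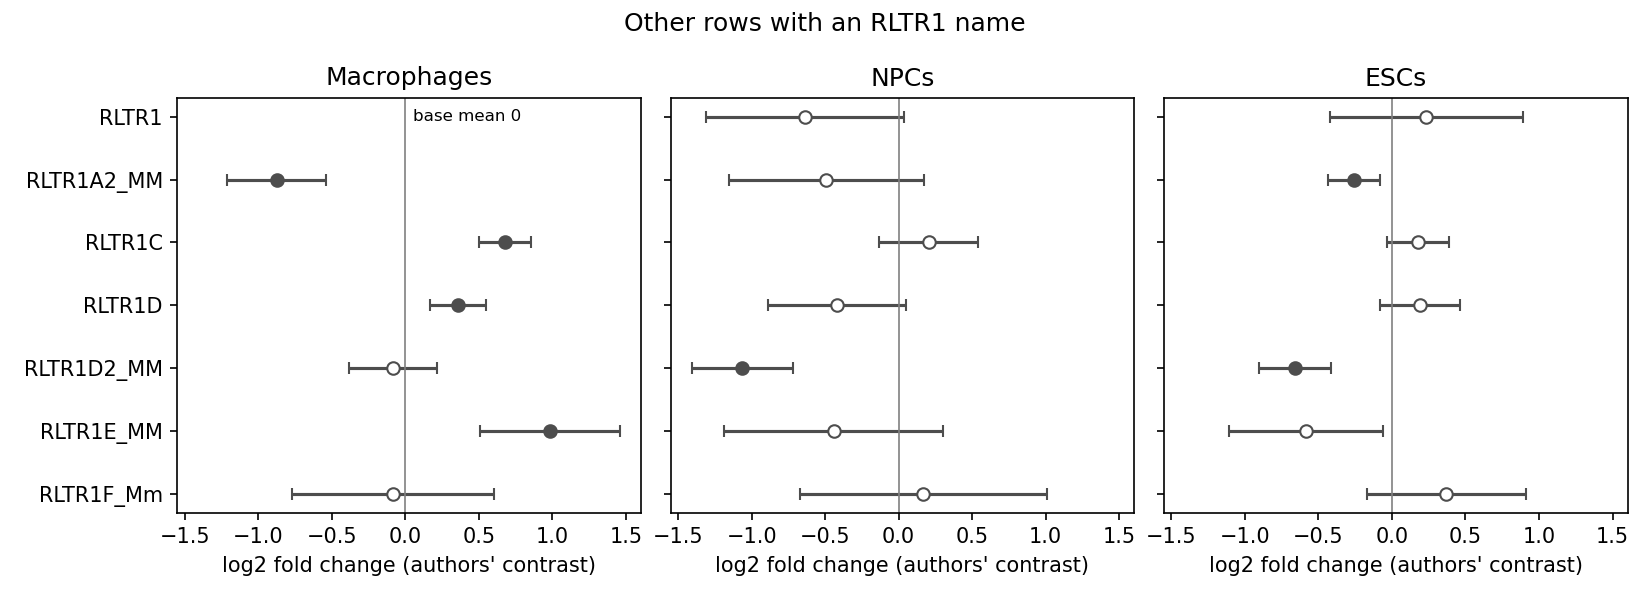
Log2 fold change of the 7 other rows with an RLTR1 name in the authors' deposited tables, 1 panel per cell type, with 95% intervals as bars. Filled points have an adjusted p under 0.05, and RLTR1 had a base mean of 0 in macrophages; called points lie on both sides of 0 in macrophages and on the negative side in NPCs and ESCs.

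GLN elements were set beside 3 other groups of gammaretrovirus-like elements of the mouse. These were the rows of murine leukaemia virus (MLV) type, the VL30 retroelements, which encode no full set of viral proteins, and the MuRRS elements with their LTRIS LTRs. Of 3 MLV-like rows 3 were negative in macrophages, 0 were called in NPCs and 1 was positive in ESCs. The MLV-like medians were -2.26, -0.16 and 0.22 in that order. Of 5 VL30 rows 2 were negative in macrophages, 1 was positive in NPCs, and 1 was positive and 1 negative in ESCs, with medians of -0.16, 0.13 and -0.10. Of 11 MuRRS rows 2 were positive and 3 negative in macrophages, 2 positive and 0 negative in NPCs, and 2 positive and 3 negative in ESCs, with medians of -0.25, -0.12 and -0.10. Over all tested ERV1 rows 24.1% were called negative in macrophages, 8.55% in NPCs and 19.8% in ESCs.

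The members of these groups with the most reads or the largest called change varied in side. RLTR4_MM-int, the MLV row with the most reads in macrophages and in ESCs, has -2.26 ± 0.13 for macrophages and 0.13 ± 0.09 for ESCs in the authors' deposited tables. RLTR4_Mm had the largest called value of this group in macrophages, and the authors' deposited table gives it as -2.26 ± 0.15. MMVL30-int had the most reads of the VL30 rows in macrophages and NPCs. The authors' deposited tables give it as -0.16 ± 0.12 for macrophages and 0.13 ± 0.20 for NPCs, neither of them called. For ESCs the authors' deposited table gives it as 0.28 ± 0.08, called on the positive side. Of the other VL30 rows the authors' deposited tables give RLTR6-int as -1.27 ± 0.08 for macrophages and -0.43 ± 0.07 for ESCs, and RLTR6B_Mm as 0.58 ± 0.16 for NPCs. Of the MuRRS rows they give, in the authors' deposited tables, LTRIS_Mus as 0.80 ± 0.14 for macrophages, LTRIS4 as 0.9999 ± 0.26 for NPCs and LTRIS3 as -0.74 ± 0.12 for ESCs. For MuRRS4-int, with the most reads of its group in macrophages and NPCs, the authors' deposited tables give -0.33 ± 0.10 for macrophages and -0.15 ± 0.23 for NPCs. For LTRIS2, with the most in ESCs, the authors' deposited table gives -0.24 ± 0.10, which was not called.

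The internal part of GLN was compared with the 6 internal rows of these groups within each table, again with the sum of the SEs as the largest error. Of 18 differences 13 exceeded the bound. All 18 share MMERGLN-int, and no such count was made for other internal rows, so it is not read as particular to GLN. Of all tested internal rows, 41.6% were called in macrophages, 19.0% in NPCs and 40.0% in ESCs. Those calls are of a row against 0 and not against another row, so the shares are not a like measure. MMERGLN-int minus MuLV-int was 1.04 in macrophages (bounding interval 0.46 to 1.62), so that GLN lay nearer 0 there, -1.12 in NPCs (-2.27 to 0.04) and -0.56 in ESCs (-0.92 to -0.20). For MuLV-int itself the authors' deposited tables give -1.997 ± 0.109 for macrophages, -0.23 ± 0.35 for NPCs and 0.27 ± 0.09 for ESCs. MMERGLN-int minus RLTR4_MM-int was 1.30 in macrophages (0.68 to 1.91), -1.33 in NPCs (-2.36 to -0.31) and -0.43 in ESCs (-0.78 to -0.07).

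The internal rows of VL30 and MuRRS did not all differ from GLN in the same way. MMERGLN-int minus MMVL30-int was -0.80 in macrophages (-1.40 to -0.20), -1.48 in NPCs (-2.34 to -0.61) and -0.57 in ESCs (-0.89 to -0.25). MMERGLN-int minus RLTR6-int, the other VL30 internal row, was 0.31 in macrophages (-0.22 to 0.83), -1.45 in NPCs (-2.35 to -0.56) and 0.14 in ESCs (-0.17 to 0.45). MMERGLN-int minus MuRRS-int was -0.53 in macrophages (-1.14 to 0.07), -1.22 in NPCs (-2.24 to -0.20) and -0.99 in ESCs (-1.37 to -0.60). MMERGLN-int minus MuRRS4-int was -0.63 in macrophages (-1.20 to -0.07), -1.20 in NPCs (-2.13 to -0.27) and 0.01 in ESCs (-0.33 to 0.35). In NPCs MMERGLN-int was thus the more negative by more than the bound beside each of these rows but MuLV-int. In macrophages differences past the bound lay on both sides. In ESCs those past the bound were all negative, and the intervals beside RLTR6-int and MuRRS4-int took in 0. These comparisons were chosen after the values were seen.

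Over the 3 log2 fold changes, the rows nearest to MMERGLN-int by Euclidean distance among the 1121 rows were UCON66, Charlie14a, MMERGLN_LTR, L1MdFanc_I and LTR50. Their distances were 0.181, 0.477, 0.506, 0.538 and 0.546 log2 units. UCON66, a repeat of unknown class, and Charlie14a, a DNA transposon, had base means of at most 13.6 and 32.5 in any of the authors' deposited tables and SEs of 0.30 or more, so their places rest on few reads. Of the nearest rows with strong read support, MMERGLN_LTR came first, and L1MdFanc_I, a row of the LINE L1 class, and LTR50, an ERVL element, were called negative in all 3 tables. The rows nearest to MMERGLN_LTR were Charlie14a, L2-2_Mam and ERVB4_1B-I_MM, at 0.0489, 0.18 and 0.234. In distance from MMERGLN-int, RLTR1B-int ranked 77 (1.06) and RLTR1B 248 (1.45). From MMERGLN_LTR, RLTR1B-int ranked 53 (0.61) and RLTR1B 311 (1.07). RLTR1B-int and RLTR1B stood 0.947 apart, and their nearest rows were EUTREP2, LTR16 and ERVB3_1-I_MM for RLTR1B-int and Charlie32a, Charlie20a and MLT1H-int for RLTR1B. EUTREP2, Charlie32a, Charlie20a and MLT1H-int were not called in any cell type. Their base means reached only 51.1 and their SEs were 0.238 or more, so their places also rest on few reads. ERVB3_1-I_MM had a base mean of only 11.8 in NPCs. These distances take the tables as deposited and rest on 3 values each.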

How the data were processed

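Poly(A) RNA was sequenced paired-end from stranded libraries, per the labels' protocols. The submitters' processing notes name build mm10 and, with no roles, the tools featureCounts, DESeq2, TopHat2 2.0.13, Bowtie2, deepTools and Trim Galore. The 3 tables hold the authors' DESeq2 comparison, per the file headers. The base mean is a signal the authors computed, the mean of counts over size factors. The log2 fold change and its SE are the authors' estimates, also log2. As a score, the authors deposited the Wald statistic. The authors deposited a p-value and an adjusted p-value per row; within a relative 1e-06 the adjusted p matched a Benjamini-Hochberg adjustment in all 1255 macrophage, 1249 NPC and 1132 ESC rows tested. Depth per library, multi-mapping and strand use in counting are not given in the sources used here, so an LTR and its internal part, or related rows, can share reads. Whether fold changes were shrunken towards 0 is likewise not stated. Rows with very few reads had small SEs, however, as shrunken estimates have. These were 0.34 for RLTR1 in NPCs at a base mean of 1.43, and 0.35 for RLTR1F_Mm in macrophages at 1.69. The fold sizes given here may thus be pulled towards 0, and by a different amount in each cell type.

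Since no per-library values were in the tables, the part of the design written for tables of results was followed, with no count model. Differences between cell types have a two-sided normal p, Benjamini-Hochberg adjusted over all rows tested in both tables. How well this p holds for shrunken fold changes, or for SEs from few libraries, was not tested. Python 3.11.15, pandas 2.3.3 and scipy 1.17.1 were used. The text names every member, the other RLTR1 rows, the row with most reads and the row of largest called change in each related list, and nearest rows by distance. Members and lists were chosen with earlier results of these data known.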

Additional observations from a re-analysis of the deposited data

Results flagged for a closer look

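The fold change of a member differed between cell types, by a test of the difference itself and with the tables taken as oriented alike, in 5 cases. MMERGLN-int in macrophages minus ESCs was -0.67 (adjusted p = 0.00792). MMERGLN_LTR in macrophages minus ESCs was -0.52 (adjusted p = 0.0420). MMERGLN-int in NPCs minus ESCs was -1.05 (adjusted p = 0.000922). RLTR1B in macrophages minus ESCs was 0.73 (adjusted p = 0.000620), and in macrophages minus NPCs it was 0.92 (adjusted p = 0.00563). The first 3 of these also passed with the sign of the ESC table turned, and neither RLTR1B difference did.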

How the results depend on the processing

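Each of the 12 member calls was recomputed under 6 alternatives. Of these 72 calls, 66 kept their side of the threshold. Only centring on the median of the tested rows alters a value, and every sign was kept under it. The other alternatives change the threshold, the adjustment or the rows adjusted over, so the sign could not change there. With Bonferroni adjustment the count of called members was 2 in macrophages, 1 in NPCs and 1 in ESCs, against 3 each. The calls lost were MMERGLN_LTR in macrophages, MMERGLN_LTR and RLTR1B in NPCs, and MMERGLN-int and RLTR1B-int in ESCs. An adjusted p under 0.01 lost RLTR1B in NPCs. With the sign of the second table turned, the members that differed were 3 for NPCs minus ESCs and 3 for macrophages minus NPCs, against 1 each. In that form RLTR1B gave -0.14 for macrophages minus ESCs and -0.34 for macrophages minus NPCs, and RLTR1B-int gave -0.73 for NPCs minus ESCs. Likewise MMERGLN-int and MMERGLN_LTR gave -2.31 and -1.63 for macrophages minus NPCs; turning the sign is itself the cause of these reversals. Of the 5 rows nearest to MMERGLN-int, 2 were the same with Wald statistics and 3 with a base mean of at least 50. Taking errors within a table as uncorrelated changed no LTR comparison, and 15 of 18 GLN differences then passed, against 13. The RLTR1B pair kept rank 1 by spread of its ratio among 43 pairs at a base mean of at least 10 and 15 pairs at 500. These minimums were chosen after the data were seen. The pairs at 500 are a subset of those ranked at 50, so the rank could not be lost there. Of the tested rows whose base mean reached 50, the median SE was 0.113 in macrophages, 0.211 in NPCs and 0.108 in ESCs, so precision was lowest in NPCs. No paired analysis was possible because the tables hold no values per library, and leaving out each replicate was not run for the same reason.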

Other observations

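Other pairs of internal and LTR rows also had ratios of base means that differed between cell types. RMER16-int had 2.92 normalised reads per read of RMER16 in macrophages, 2.49 in NPCs and 57.9 in ESCs, a spread of 23.2-fold, the next after the RLTR1B pair. The next was MLT1F2-int, with 0.0503 reads per read of MLT1F2 in macrophages, 0.408 in NPCs and 0.127 in ESCs, a spread of 8.13-fold. RLTR45-int had 2.77 reads per read of RLTR45 in macrophages, 0.772 in NPCs and 6.23 in ESCs, a spread of 8.07-fold. The highest ratio was that of ESCs for RMER16 and RLTR45, as for RLTR1B, and that of NPCs for MLT1F2. These pairs were chosen after their values were seen, and no test was made.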
